A study of Homo sapiens with 12 samples.

Results

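AGO2-bound RNA was compared with the whole RNA of the same cells in Jurkat, a human T-cell leukaemia line, over 8 of the 12 arrays of the series: the 4 AGO2 IP arrays and the 4 Total RNA arrays, chosen by the fraction in their labels. The cells had been transduced with a construct encoding miR-21 or with its control vector, and all 8 arrays came from transduced cells. Each fraction of each construct was represented by replicates 1 and 2, which gave 4 pairs of an AGO2 IP array and a Total RNA array with the same construct and replicate number. AGO2 IP denotes RNA recovered with an antibody to AGO2 (IP stands for immunopurification), and the 4 remaining arrays held IgG IP RNA, recovered with control IgG. Per the labels, 1 ug of Total RNA and 100 ng of IP RNA were labelled, so the labelled amount and the fraction cannot be told apart. The labels do not state that the replicates were separate cultures, so the p-values measure the spread between these arrays, which may be technical. The sources used here do not give the vector's promoter, or whether a transduced line was a clone or a pool.

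AGO2 is an Argonaute protein. It holds a miRNA as a guide, and bases near the guide's 5′ end, the seed, pair with matching sites, mostly in the 3′ untranslated region of mRNAs; TNRC6 proteins then recruit the enzymes that shorten the poly(A) tail and remove the cap. mRNAs that carry sites for the abundant miRNAs of a cell are therefore commonly enriched when AGO2 is purified, and T-cell leukaemia lines are known for high levels of the miR-17 to miR-92 cluster. miR-21, the miRNA encoded by the construct, is widely raised in tumours and in activated T cells.

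The guide strands whose reported targets were examined as gene lists are printed here because they set which sites AGO2 can bind. They are the mature sequences of RefSeq (GRCh38.p14), 5′ to 3′, with the seed, bases 2 to 8, in capitals. miR-17 and miR-20a share a seed, and so do miR-19a and miR-19b; the seeds of miR-21, miR-18a and miR-92a differ from these and from each other. miR-21 lies at chr17:59841273-59841294 on the plus strand, and the 6 guides of the cluster lie on the plus strand of chromosome 13, from miR-17 at chr13:91350618-91350640 to miR-92a at chr13:91351361-91351382.
miR-21-5p: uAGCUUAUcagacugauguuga
miR-17-5p: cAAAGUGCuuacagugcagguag
miR-20a-5p: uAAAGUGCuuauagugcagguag
miR-18a-5p: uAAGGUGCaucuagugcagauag
miR-19a-3p: uGUGCAAAucuaugcaaaacuga
miR-19b-3p: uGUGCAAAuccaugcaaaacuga
miR-92a-3p: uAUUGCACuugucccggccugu

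The deposited values are log2 signals per probe set, and every difference given is AGO2 IP minus Total RNA on that log2 scale, so that a difference of 1 is a 2-fold change. Array means were 4.39 to 4.4 in replicate 1 and 5.25 to 5.27 in replicate 2, so differences are taken within a replicate; where groups are said to overlap or not, the levels of all 8 arrays are set together. The label was checked against lineage markers: all 14 T cell markers passed the filter on low values, with a mean level of 8.14 to 8.93 in Total RNA and 7.77 to 8.58 in AGO2 IP. Of the B cell, monocyte, erythroid, epithelial and fibroblast markers, 2 or 3 of each list passed, with list means of 3.29 to 4.95 in Total RNA and 3.31 to 4.93 in AGO2 IP, and none was called higher or lower.

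The control vector AGO2 IP array of replicate 2 stood apart from its label group. Across the 12824 genes tested, its correlation with the control vector IgG IP array of the same replicate was 0.997 (SD of the difference 0.184), against 0.966 with the AGO2 IP array of miR-21 cells in that replicate (SD 0.607). The miR-21 AGO2 IP and IgG IP arrays of replicate 2 also lay close together (r = 0.992, SD 0.292). Both AGO2 IP arrays of replicate 2 thus lay closer to the IgG IP array of their construct than to each other. The miR-21 AGO2 IP array of replicate 2 correlated with the AGO2 IP arrays of replicate 1 at 0.875 and 0.915. In replicate 1 the AGO2 IP arrays correlated with the IgG IP arrays at 0.922 to 0.929 and with each other at 0.970. These values describe arrays over genes, which are not independent replicates, and the labels were kept as given. The main results are therefore given with and without the control vector AGO2 IP array of replicate 2, called below the array that stood apart. The results without it still hold the miR-21 AGO2 IP array of replicate 2, which also read like its IgG IP array. Medians of IgG IP minus Total RNA given below pool both replicates.

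**Figure D1:**
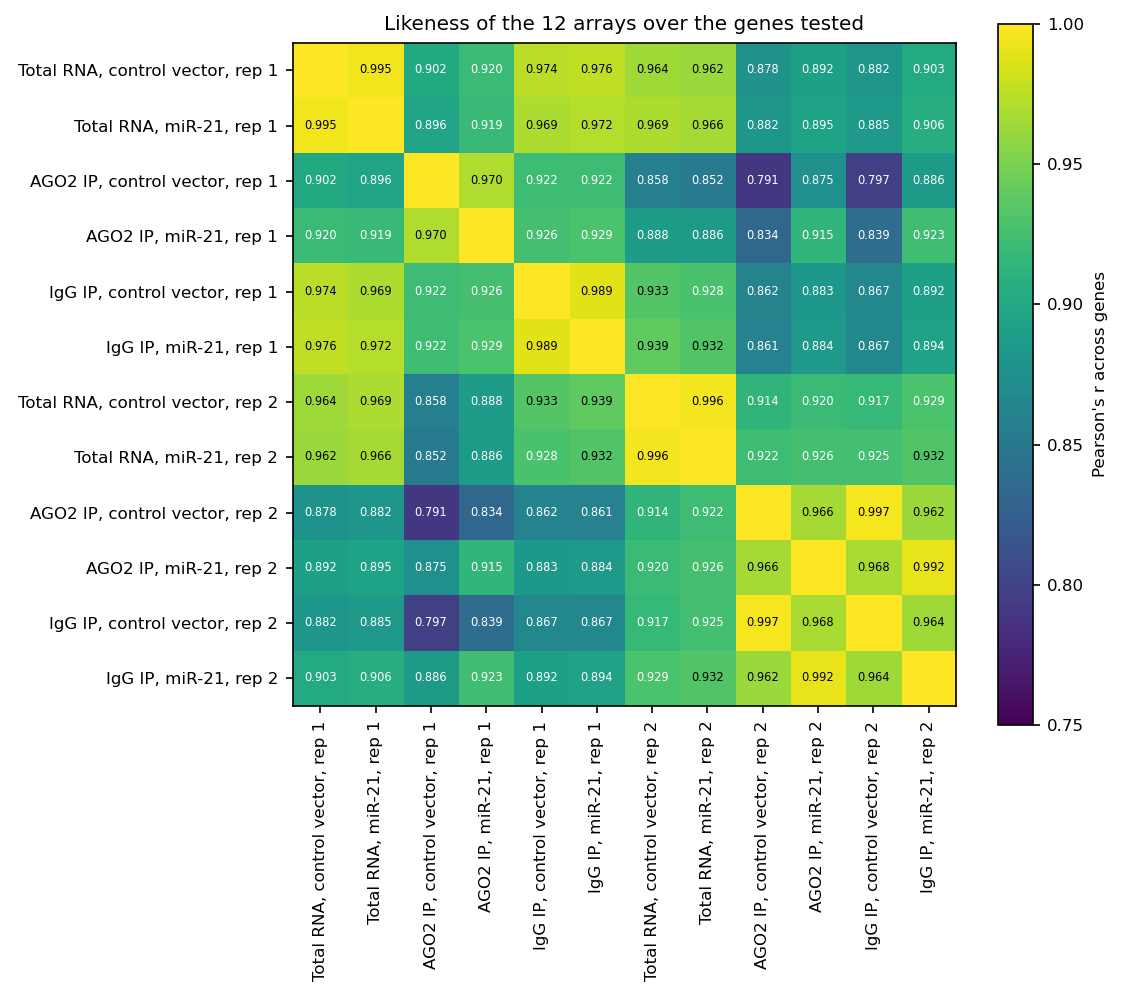
Pearson's r across the 12824 genes tested between every pair of the 12 arrays, ordered by replicate and fraction. The control vector AGO2 IP and IgG IP arrays of replicate 2 correlate at 0.997, and the AGO2 IP arrays of replicate 1 correlate with the IgG IP arrays of that replicate at 0.922 to 0.929.

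AGO2 IP against Total RNA gave 604 genes called higher (4.71% of the genes tested) and 1447 called lower (11.3%), at a Benjamini-Hochberg adjusted p under 0.05 in limma with the replicate number as a block. Among the calls were 47 of 362 zinc finger transcription factors, 10 of 43 reported targets of the miR-17 to miR-92 cluster and 9 of 32 genes of the early activation response called higher, with 25, 3 and 0 members of these lists called lower. Calls on the other side included 20 of 59 cytosolic ribosomal protein genes, 21 of 74 respiratory chain genes, 24 of 67 chromatin regulators and 17 of 44 DNA replication genes. The median difference of all genes was -0.05. Without the control vector AGO2 IP array of replicate 2, 1073 genes were higher (8.37%) and 1978 lower (15.4%), and 538 of the 604 and 1245 of the 1447 were called again. Of the other arrays, some carried the count more than others. The 2051 calls became 2 when the AGO2 IP array of miR-21 cells was left out of replicate 2, and 68 when it was left out of replicate 1. Leaving out a Total RNA array of replicate 2 gave 57 (vector) or 53 (miR-21) calls. In replicate 1, 1197 were left without the Total RNA array of miR-21 cells and 1029 without the AGO2 IP array of vector cells. With no term for the replicate number 0 genes were called by limma, and 1230 had an unadjusted p under 0.05. The split by direction follows the scaling: with each array centred on the genes tested the median of all genes became 0.14, with 1017 higher and 701 lower, and cyclic loess gave 619 higher and 788 lower. Unless given by or between replicates, counts of list members and adjusted p-values of named genes below come from this fit and share these limits. Those by or between replicates come from the fit by replicate, and they also depended on single arrays.

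The 4 pairs share no array and give 4 separate measurements of each gene. Their differences correlated across genes at 0.84 between the constructs of replicate 1 and at 0.74 between those of replicate 2. Between replicates the correlation was 0.65 for miR-21 and 0.07 for the control vector, whose replicate 2 pair holds the array that stood apart. In all, 1802 genes were above 0 in all 4 pairs and 3048 below 0 in all 4, together 37.8% of the genes tested. Of the genes called, 595 of the 604 higher and 1444 of the 1447 lower had the same sign in every pair. The calls were made on these same arrays, so this likeness of sign follows largely from the selection and is no separate test.

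**Figure D2:**
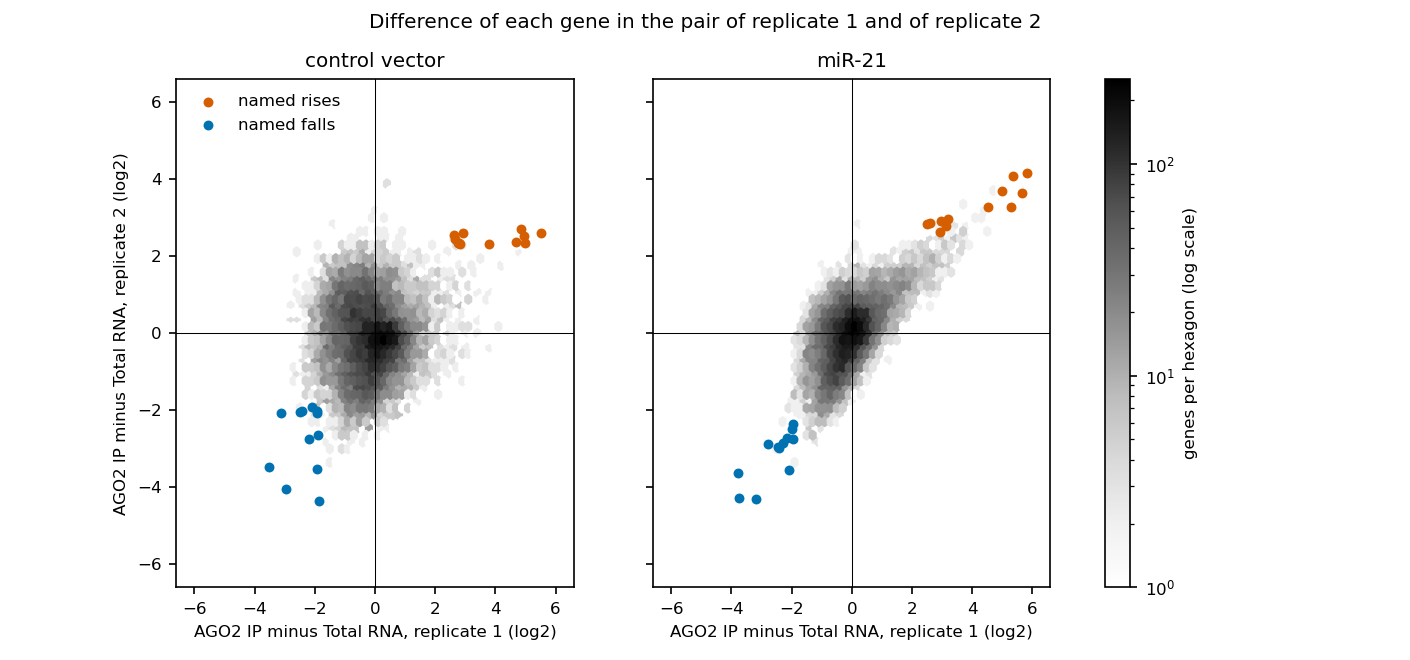
AGO2 IP minus Total RNA of each of the 12824 genes in replicate 1 (x, log2) and in replicate 2 (y, log2), for the control vector (left) and miR-21 (right), as counts of genes per hexagon, with the 12 named rises and 12 named falls as points. The correlation across genes is 0.07 on the left and 0.65 on the right.

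The 12 rises that held best, ranked by the smallest difference over the 4 pairs, included the zinc finger genes ZNF14, ZNF124 and ZNF780A. Genes of the cytoskeleton, protein folding and vesicle traffic were also among them. For these and the 12 falls below, this ranking fixes a common sign in the 4 pairs and favours groups that do not overlap. CFL2, a cofilin that severs actin filaments, led the rises. Its log2 values in Total RNA were 5.09 (control vector) and 5.05 (miR-21) in replicate 1 and 6.02 and 6.17 in replicate 2; in AGO2 IP they were 9.96 and 10.40, then 8.73 and 10.26. Every AGO2 IP value lay above every Total RNA value, and the fitted difference was 4.25 ± 0.77 (SE; adjusted p = 0.0159). Its other probe sets gave 3.0 and 4.06.

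ZNF14, a KRAB zinc finger gene, read 6.17 and 5.88 in Total RNA of replicate 1 and 11.68 and 11.53 in AGO2 IP of that replicate. In replicate 2 it read 6.81 and 7.12 in Total RNA and 9.42 and 10.77 in AGO2 IP. The groups did not overlap, and the difference was smaller in replicate 2 in both constructs (replicate 1 minus replicate 2, 2.44 ± 0.56, adjusted p = 0.0200). ZNF124 rose by 4.04 ± 0.66 and ZNF780A by 3.71 ± 0.75. In Total RNA of replicate 1 ZNF780A read 3.19 and 3.36, below 4.02, the mean level a gene needed to be tested. In replicate 2 it read 4.8 and 4.8. How far the floor of the signal affects its rise was not tested. The second probe set of ZNF124 gave -0.77, so its direction rests on the probe set used.

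MYLIP, a ubiquitin ligase that marks the LDL receptor for degradation and a reported target of the miR-17 to miR-92 cluster, read 5.52 and 5.11 in Total RNA of replicate 1 against 9.30 and 10.41 in AGO2 IP. In replicate 2 it read 6.39 and 6.51 against 8.72 and 9.79. All 4 AGO2 IP arrays were above all 4 Total RNA arrays, and the difference was 3.68 ± 0.71 (adjusted p = 0.0175). Its 4 other probe sets ranged from 0.43 to 3.90. ENPP5, of the ectonucleotide pyrophosphatase family, rose by 4.33 ± 0.81, with pair differences from 2.35 in the control vector pair of replicate 2 to 5.83 in the miR-21 pair of replicate 1.

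DNAJB9, ARL15 and GPAT3 rose by similar amounts in all 4 pairs. DNAJB9, an ER co-chaperone of the unfolded protein response, differed by 2.63 and 2.96 in replicate 1 and by 2.54 and 2.91 in replicate 2 (control vector, then miR-21). ARL15, a small GTPase of the ARF-like family, differed by 2.66, 2.50, 2.44 and 2.85 in the same order. GPAT3, an acyltransferase of triglyceride synthesis, differed by 2.83, 2.92, 2.33 and 2.63. For these genes the control vector pair of replicate 2 departed little from the others, although its AGO2 IP array read much like IgG IP, as given below. SNX16, an endosomal sorting nexin, rose by 2.86 ± 0.64, CDC37L1, a relative of the HSP90 co-chaperone CDC37, by 2.83 ± 0.44, and NABP1, a single-stranded DNA binding protein, by 2.64 ± 0.50. The adjusted p of the 12 rises ran from 0.0124 for CDC37L1 to 0.0234 for SNX16, and without the array that stood apart from 0.00414 for ZNF124 to 0.0146 for SNX16. IgG IP minus Total RNA, which uses the same Total RNA arrays, was 1.08 for SNX16, 1.35 for DNAJB9, 2.0 for CFL2 and 2.03 for ZNF14, and was not called for any of the 12. In replicate 2, however, the IgG IP arrays read much like the AGO2 IP arrays for these genes. CFL2 read 8.70 and 10.03 in IgG IP of replicate 2 (control vector, then miR-21) beside 8.73 and 10.26 in AGO2 IP, ZNF14 9.51 and 10.69 beside 9.42 and 10.77, and SNX16 10.15 and 10.69 beside 10.26 and 10.76. The rises of these 3 genes in replicate 2 were thus also present with control IgG. In replicate 1 IgG IP read 6.0 and 5.61 for CFL2, 6.98 and 6.92 for ZNF14 and 6.52 and 6.41 for SNX16, all below AGO2 IP.

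The 12 falls were led by noncoding transcripts, followed by long genes of the nucleus and cytoskeleton. FTX, a long noncoding RNA of the X inactivation centre, read 5.89 and 6.07 in Total RNA of replicate 1 and 2.92 and 2.33 in AGO2 IP. In replicate 2 it read 7.65 and 7.49 against 3.61 and 3.21. The AGO2 IP values lay below all Total RNA values, and the difference was -3.76 ± 0.22 (adjusted p = 2.6e-04). They also lay below 4.02, the mean level a gene needed to be tested, which FTX passed (4.45) through its Total RNA values. How far the floor of the signal affects the size of this fall was not tested. RPS16P5, a ribosomal protein pseudogene, differed by -3.53, -3.79, -3.47 and -3.63 over the 4 pairs. Its sequence resembles that of the parent gene, and how far the probes tell them apart was not tested. LINC01355 fell by 2.58 ± 0.22 on the log2 scale, GABPB1-AS1, an antisense RNA, by 2.72 ± 0.30, and LOC100190986 by 3.43 ± 0.39. LOC100190986 read 2.86 to 4.19 in AGO2 IP, likewise near or below 4.02.

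Among coding genes PRKDC, which encodes the kinase subunit of DNA-PK in DNA break repair, read 9.64 and 10.03 in Total RNA of replicate 1 against 7.16 and 7.87 in AGO2 IP. In replicate 2 it read 10.95 and 10.96 against 8.90 and 8.24. All AGO2 IP values were below all Total RNA values (difference -2.35 ± 0.26, adjusted p = 0.00507). DST, which links cytoskeletal filaments, fell by 2.19 ± 0.22, BPTF, a subunit of a nucleosome remodelling complex, by 2.12 ± 0.21, the kinetochore motor CENPE by 2.18 ± 0.27 and MKI67, a proliferation marker, by 2.48 ± 0.28. ZNF573 fell by 2.27 ± 0.21, against the direction of the zinc finger list it belongs to. It read 2.57 and 2.05 in AGO2 IP of replicate 1 and 4.81 and 3.93 in replicate 2. Its mean over the 12 arrays, 4.17, was close to the filter of 4.02. MIF, a cytokine gene with a short transcript, fell more in replicate 2 (-3.53 and -3.54) than in replicate 1 (-1.92 and -2.08; replicate 1 minus replicate 2, 1.53 ± 0.25, adjusted p = 0.00917). Against the same Total RNA arrays IgG IP gave -3.21 for FTX, -2.06 for PRKDC, -2.02 for DST, -1.75 for BPTF and -2.38 for MIF, and all 12 falls were also called lower there.

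**Figure D3:**
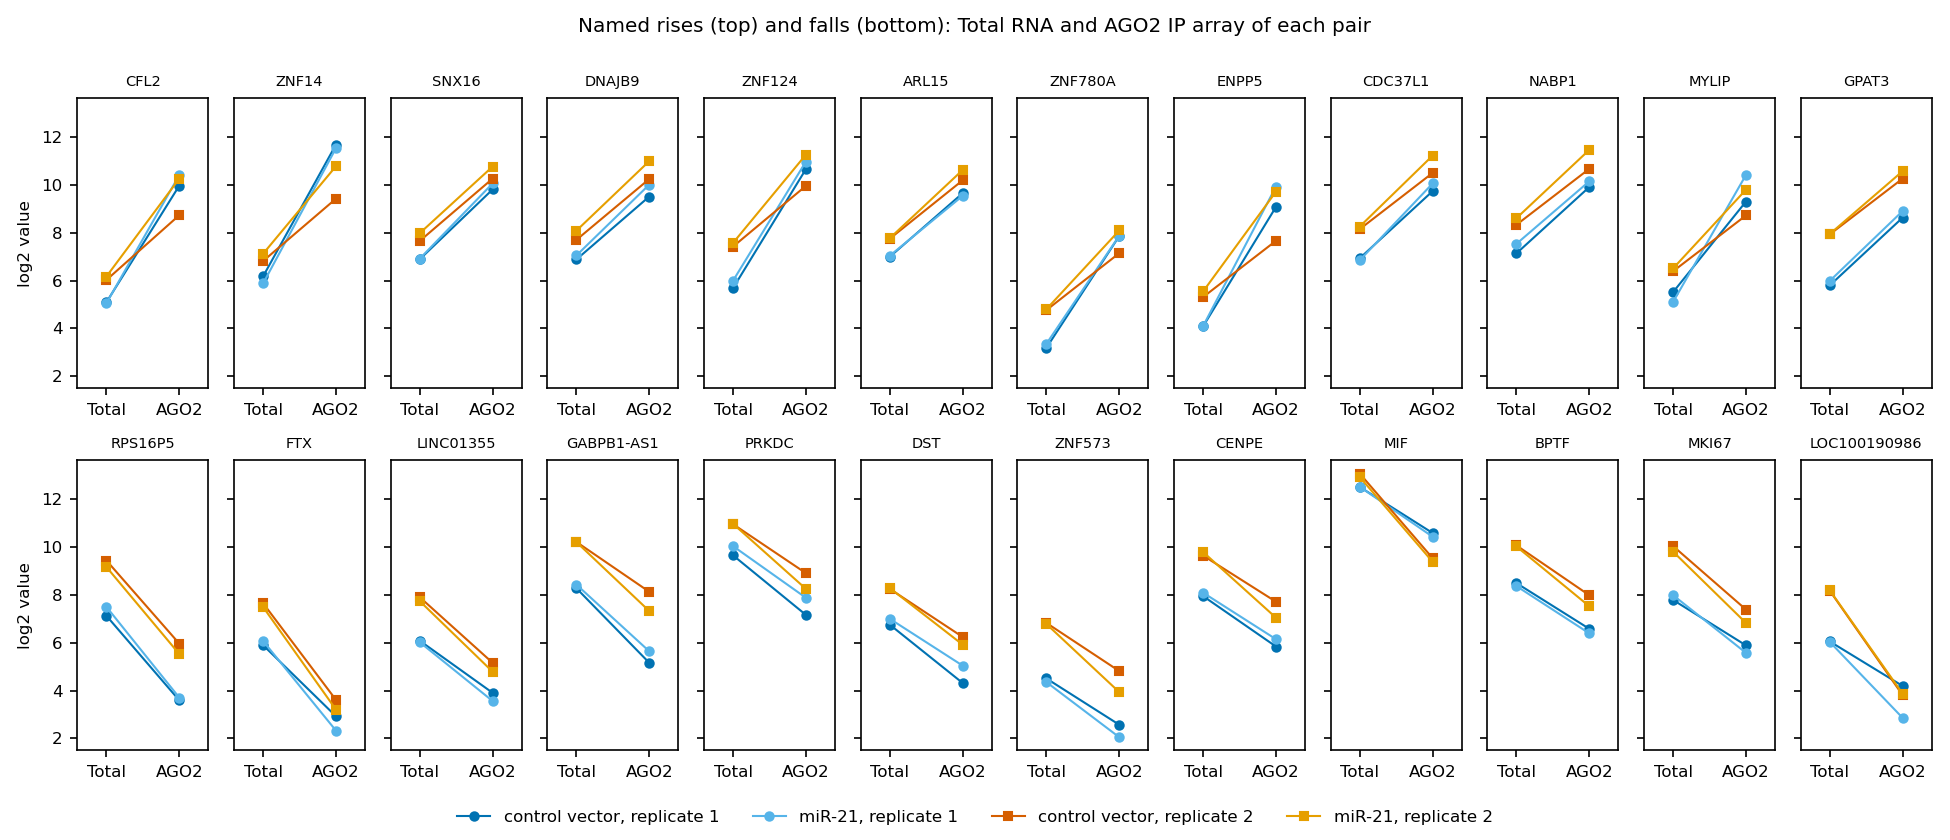
log2 value of the 12 named rises (top) and 12 named falls (bottom) in the Total RNA and the AGO2 IP array of each pair, a line joining the arrays of a pair. All 4 lines go up in the top row and down in the bottom row, which follows from how the genes were chosen. For CFL2 the lines run from 5.05 to 6.17 in Total RNA to 8.73 to 10.40 in AGO2 IP.

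Cytosolic ribosomal protein and translation factor genes were called lower in AGO2 IP in larger shares than all genes. Of 59 cytosolic ribosomal protein genes, 20 were called lower (33.9%, against 11.3% of all genes) and 1 higher, with a list median of -0.46 (-0.37 for IgG IP minus Total RNA). RPL39L (-1.69 ± 0.35), RPL12 (-1.64 ± 0.27) and RPL39 (-1.46 ± 0.28) fell most. The higher member was RPL36AL (0.77 ± 0.18, adjusted p = 0.0268). The list median lay below that of all genes in all 4 pairs. The members had 22 called lower and 5 higher in replicate 1, and 31 lower and 1 higher in replicate 2 (of all genes, 20.6% were lower and 10.4% higher in replicate 1, and 20.7% and 16.4% in replicate 2), and without the array that stood apart the list held 20 lower and 2 higher. Centring on the genes tested and cyclic loess each left 13 lower. Of 59 translation initiation and elongation factors 15 were lower (25.4%) and 1 higher (median -0.42); EIF3K fell by 1.64 and EIF3I by 1.63, both subunits of the factor that prepares the small ribosomal subunit, while EIF4E2, a cap-binding repressor of translation, rose by 1.98 ± 0.54. Of 75 mitochondrial ribosomal protein genes 11 were lower (14.7%) and 5 higher (6.67%), shares near those of all genes, with a median of -0.40. Their split turned with the scaling, to 5 lower and 8 higher on centring on the genes tested, 2 and 5 with cyclic loess and 5 and 6 with quantile normalization. Members moved far in both directions: MRPL58 rose by 2.37 ± 0.63 and MRPL20 by 2.04 ± 0.44, and MRPL41 fell by 1.58 ± 0.35 and MRPS12 by 1.57 ± 0.25. Of 18 aminoacyl-tRNA synthetase genes 5 were lower, VARS1 (-1.30) and EPRS1 (-1.22) among them, and RARS1, the arginyl-tRNA synthetase, rose by 2.46 ± 0.45.

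Respiratory chain and glycolysis genes were also called lower in larger shares than all genes. Of 74 nuclear-encoded respiratory chain and ATP synthase genes 21 were called lower (28.4%) and 1 higher, with a list median of -0.64 (-0.45 for IgG IP minus Total RNA). The median was -0.24 and -0.26 in the pairs of replicate 1 and -1.15 and -0.86 in those of replicate 2, and 23 members were lower in replicate 1 against 47 in replicate 2. In 25 members AGO2 IP minus Total RNA was called as greater in replicate 1. Without the array that stood apart 18 were lower and 3 higher, and centring on the genes tested or cyclic loess left 14 or 8 lower. NDUFB11, of complex I, fell by 2.27 ± 0.39 and NDUFS7 by 2.03 ± 0.31. The second probe set of NDUFS7 gave -0.03, that of UQCR11 gave 0.14 beside a fall of 1.85, and those of SDHC, the higher member at 1.90 ± 0.29, ranged from -0.20 to 1.93. Of 19 glycolysis genes 6 were lower (31.6%; median -0.44, and -0.36 for IgG IP), with ENO1 at -1.72, TPI1 at -1.50 and ALDOA at -1.44; the glucose transporter SLC2A3 rose by 3.34 ± 0.78. Of 16 cholesterol synthesis genes HMGCS1 rose by 1.61 and HSD17B7 and FDPS fell by 1.06 and 0.92 (median -0.14), shares near those of all genes that became 2 higher and 1 lower on centring on the genes tested and 1 and 1 with cyclic loess. ACTB 3′ minus 5′ control signals were 1.35 to 1.38 in Total RNA of replicate 1 and 1.97 to 4.0 in its AGO2 IP, and 3.18 to 3.53 and 2.08 to 2.58 in replicate 2. GAPDH 3′ minus 5′ signals were 0.139 to 0.222 in Total RNA of replicate 1 and 0.349 to 1.95 in its AGO2 IP, and 0.575 to 0.713 and 1.02 to 1.05 in replicate 2. Of these measures of RNA quality, ACTB thus moved in opposite directions in the replicates and GAPDH upward in both. In AGO2 IP of replicate 1 the values were 4.0 and 1.95 in vector cells (ACTB, then GAPDH) and 1.97 and 0.349 in miR-21 cells. Signals of dap, a bacterial control, were 7.98 to 8.32 in Total RNA and 2.11 to 2.12 in AGO2 IP of replicate 1. In replicate 2 they were 6.11 to 7.09 and 5.68 to 7.14. The part of these control signals in the differences was not tested.

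Protein folding and turnover lists held calls in both directions, beside 4.71% of all genes higher and 11.3% lower. The lower share was 19% for proteasome subunits and 23.3% for ubiquitin-specific proteases. It was 7.69% to 13% for the other lists, near that of all genes. The higher share ran from 0% for proteasome subunits to 13.8% for the stress response list. Of 42 proteasome subunit genes 8 were lower and 0 higher (median -0.16), PSMB3 by 2.05 and PSMD8 by 1.42. Of 23 cytosolic chaperone genes 2 were higher and 3 lower; DNAJB4 rose by 2.33 ± 0.54, with pair differences of 2.19 to 2.40, and STIP1 fell by 1.21 ± 0.25. The unfolded protein and integrated stress response list had 4 of 29 members higher and 3 lower. Without the array that stood apart 5 were higher and 11 lower, beside 8.37% and 15.4% of all genes. Its higher members included CHAC1, which degrades glutathione (2.92 ± 0.83), though CHAC1 stood at -0.41 in the control vector pair of replicate 2 against 3.72 to 4.57 in the other 3. Of 43 ubiquitin-specific proteases 10 were lower, USP24 (-1.73), USP34 (-1.64) and USP9X (-1.48) foremost, and 3 were higher, with USP12 at 1.62. Of 78 F-box and BTB adaptors 7 were higher and 6 lower, with FBXO3 at 2.34 and FBXO38 at -1.20, and the sign of their median against all genes changed with the scaling. Of 24 ubiquitin-conjugating enzymes UBE2Q2 rose by 1.30 and UBE2L6 and UBE2O fell by 1.15 and 0.95.

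Genes of chromosomes and their copying were called mainly on the lower side. Of 67 chromatin remodellers and histone modifiers 24 were called lower (35.8%) and 1 higher, with a median of -0.65 (-0.56 for IgG IP minus Total RNA). SPEN, a transcriptional corepressor, fell by 2.27 ± 0.30 and EP300, a histone acetyltransferase, by 2.07 ± 0.26, and SMARCA2, an ATPase of the SWI/SNF complex, rose by 1.27 ± 0.28. Of 21 replication-dependent histone genes, whose mRNAs end in a stem-loop and not in a poly(A) tail, 8 were lower and 0 higher (median -0.73), among them H1-2 (-2.0) and H3C2 (-1.18). Of 44 DNA replication genes 17 were lower (38.6%) and 0 higher, with a median of -0.32; MCM10 fell by 1.61, MCM2 by 1.44 and MCM4 by 1.32, of which MCM2 and MCM4 are subunits of the replicative helicase and MCM10 acts in its activation. Of 34 mitosis genes 7 were lower and 2 higher, the phosphatase gene CDC25C by 2.22 ± 0.63 and cyclin A2, CCNA2, by 1.54 ± 0.32. Centring on the median of the genes tested left 18 chromatin, 4 histone and 8 replication genes lower, so part of each count goes with the scaling. Leaving out the array that stood apart gave 27 chromatin, 8 histone and 12 replication genes lower. By replicate, 29 and 37 chromatin genes, 11 and 11 histone genes and 14 and 18 replication genes were lower (replicate 1, then 2), beside 20.6% and 20.7% of all genes.

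Zinc finger transcription factors, many of which recruit corepressors through a KRAB domain, held more higher than lower calls. Of 362 ZNF and ZFP genes tested, 47 were called higher (13%, against 4.71% of all genes) and 25 lower (6.91%). The list median was 0.22, and 0.06 for IgG IP minus Total RNA. The IgG IP value pools both replicates, and in replicate 2 the IgG IP arrays lay close to the AGO2 IP arrays (r = 0.997 and 0.992). How far the list also rose with control IgG in replicate 2 was not tested. For AGO2 IP the list median lay above that of all genes by 0.21 and 0.24 in replicate 1. In replicate 2 it did so by 0.41 and 0.28. ZNF14, ZNF124 and ZNF439 (3.96 ± 0.93) rose most, and ZNF573, ZNF431 (-1.78 ± 0.21) and ZNF587 (-1.61 ± 0.24) fell most. Replicate 1 had 91 higher and 52 lower (10.4% and 20.6% of all genes), and replicate 2 had 116 and 38 (16.4% and 20.7% of all genes). Without the array that stood apart 70 were higher and 41 lower, and centring on the genes tested gave 78 and 12. These genes share sequence within clusters, and how far their probes cross-hybridise was not tested. Forkhead, SOX and HOX factors, another group of DNA-binding proteins, had 1 of 50 members higher, HOXB7 (1.44 ± 0.29), and 3 lower.

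Reported targets of the miR-17 to miR-92 cluster, the family whose guides are printed above, had 10 of 43 members called higher (23.3%) and 3 lower, with a median of 0.35. MYLIP, SOCS1, an inhibitor of cytokine signalling (3.59 ± 0.87), and F3, tissue factor (3.23 ± 0.65), rose most. F3 differed by 4.17 and 4.32 in replicate 1 and by 2.05 and 2.37 in replicate 2. E2F5 (2.76 ± 0.52), TGFBR2 (2.25 ± 0.48) and E2F3 (1.05 ± 0.29) were also higher, while BMPR2 (-1.72 ± 0.39), the phosphatase gene PHLPP1 (-1.16) and HIF1A (-1.07) fell. The list median exceeded that of all genes in all 4 pairs, by 0.12 in the control vector pair of replicate 2 and by 0.44 to 0.59 in the others. By replicate, 17 were higher and 4 lower in replicate 1, and 12 and 2 in replicate 2. Without the array that stood apart 15 were higher and 3 lower. SOCS1 had 2 other probe sets, at 0.58 and 1.23. IgG IP minus Total RNA for the list had a median of 0.06 over both replicates. In replicate 2, however, SOCS1 read 5.52 and 7.67 in IgG IP beside 5.57 and 7.51 in AGO2 IP (control vector, then miR-21). MYLIP read 8.79 and 9.90 beside 8.72 and 9.79.

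Reported miR-21 targets had 6 of 36 members higher and 4 lower, with a median of 0.14. TGFBR2, the stress sensor SESN1 (2.06 ± 0.46) and SKP2, an F-box protein of the cell cycle (2.0 ± 0.53), rose most. SMARCA4, an ATPase of the SWI/SNF complex (-2.05 ± 0.43), BMPR2 and APAF1 (-0.95 ± 0.24) fell most, and the second probe set of APAF1 gave 0.14. The list's median minus that of all genes was -0.12 and 0.35 in replicate 1 (control vector, then miR-21) and 0.40 and 0.15 in replicate 2, so the miR-21 construct stood higher in replicate 1 and lower in replicate 2. The difference of AGO2 IP minus Total RNA between the constructs was called for 0 genes in either direction by limma (0% of the genes tested).

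Transcripts of the silencing machinery itself held few calls. Of 31 RISC and miRNA biogenesis genes 6 were lower (19.4%, against 11.3% of all genes) and 0 higher (against 4.71%), with a median of -0.32. In a list of this size 0 higher is not far from the share of all genes. Without the array that stood apart 7 were lower and 3 higher, beside 15.4% and 8.37% of all genes. The mRNA of AGO2 itself read 7.03 and 7.25 in Total RNA of replicate 1 against 5.85 and 7.19 in AGO2 IP, and 7.85 and 7.79 against 6.55 and 7.10 in replicate 2 (difference -0.81 ± 0.23, adjusted p = 0.0426). The groups overlapped across replicates, and the fall in the miR-21 pair of replicate 1 was 0.06. AGO1 (0.04 ± 0.21), AGO3 (-0.33 ± 0.25) and AGO4 (-0.57 ± 0.30) did not pass the test. The 3 other probe sets of AGO3 were called lower, at -1.61, -1.52 and -1.68, so its value rests on the probe set used, and the other probe sets of AGO1 ranged from -0.36 to 0.82 and those of AGO4 from 0.03 to 0.93, none of them called. Of the scaffold proteins TNRC6A stood at 1.29 ± 0.53 (adjusted p = 0.127; 1.96 and adjusted p = 0.0114 without the array that stood apart), TNRC6B at -0.76 ± 0.30 and TNRC6C at 0.01 ± 0.28. DICER1, which cuts the miRNA precursor and is itself a known let-7 target, stood at 0.87 ± 0.41 (adjusted p = 0.182; 1.34 and adjusted p = 0.0266 without that array). The largest falls of the list were in SND1 (-1.38), a nuclease associated with RISC, EDC4 (-1.29), a decapping scaffold, and DDX17 (-0.99). Of 52 deadenylation, decapping and decay genes 3 were higher and 5 lower. CNOT4 (1.94), ZFP36 (1.81), which directs mRNAs with AU-rich elements to decay, and BTG3 (1.09) rose, and LSM7 (-1.62) and UPF2 (-1.30) fell.

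T cell genes of the early activation response held calls on the higher side only. Of 32 activation and immediate early response genes 9 were called higher (28.1%) and 0 lower. Their median was 0.50, and 0.17 for IgG IP minus Total RNA. The IgG IP value pools both replicates, and replicate 2, where IgG IP lay close to AGO2 IP, was not taken by itself. CD69, an early activation receptor, rose by 3.82 ± 0.69, the kinase gene SGK1 by 2.80 ± 0.53 and IER3 by 2.54 ± 0.51. The list median was 0.46 and 1.08 in the pairs of replicate 1 and -0.05 and 0.63 in those of replicate 2, the lowest being the pair with the array that stood apart. Replicate 1 had 15 higher and 0 lower, replicate 2 had 10 and 1, and without that array 12 were higher and 1 lower. The list shares 2 genes with the reported targets of the miR-17 to miR-92 cluster, and none of its 9 higher members is on either list of reported targets. T cell receptor signalling genes had 2 of 43 members higher (4.65%) and 5 lower (11.6%), the shares of all genes, with a median of -0.37: CBL, a ubiquitin ligase, fell by 1.45 ± 0.25, PIK3CD by 1.06 and CD3E by 0.74, and the costimulatory receptor ICOS rose by 1.39 ± 0.24. T-cell leukaemia transcription factors had MYCN higher (1.99 ± 0.45) and IKZF2 (-0.98), GATA3 (-0.80) and IKZF1 (-0.69) lower out of 23, but the other probe sets of MYCN gave -0.02 and 0.23 and that of IKZF2 gave 0.26. Of the 14 T cell markers CD3E, PTPRC (-0.74) and CD5 (-0.73) were lower.

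Several small lists of signalling inhibitors and death genes, which share members, held more higher than lower calls. The dual-specificity phosphatases share 5 genes with the early activation list, the E2F list 6 with the reported cluster targets, and the p53 targets 6 with the BCL2 and caspase list. Of 19 dual-specificity phosphatase genes, which switch off MAP kinases, 5 were higher (26.3%) and 0 lower, with a median of 0.36; DUSP5 rose by 1.63 ± 0.38, DUSP10 by 1.48 ± 0.35 and DUSP15 by 1.30 ± 0.35. Of 26 p53 target genes 4 were higher and 0 lower (median 0.45), with SESN1, the death receptor FAS (1.57 ± 0.31) and TP53INP1 (1.16 ± 0.25) foremost. Both medians lay above that of all genes in all 4 pairs. For IgG IP minus Total RNA the medians were 0.24 (phosphatases) and 0.17 (p53 targets). These too pool both replicates, and replicate 2, where IgG IP lay close to AGO2 IP, was not taken by itself. Of 13 E2F and pocket protein genes E2F5, E2F3 and E2F6 (0.98 ± 0.29) were higher and none was lower. Of 19 TGF-beta and BMP receptors and SMADs 4 were higher and 2 lower; the receptors TGFBR2, ACVR2A (2.23) and ACVR1 (1.49) rose, whereas BMPR2 and SMAD9 (-1.17) fell. SOCS, Sprouty and SPRED inhibitors had SOCS1 and SOCS5 (1.36) higher out of 14. Of 37 BCL2 family and caspase genes 5 were higher and 3 lower, with CASP8 at 2.40, MCL1 at 1.67, BAD at -1.31 and BIRC5 at -0.82. The interferon response list went the other way, with 8 of 37 lower and 1 higher (median -0.47): IFITM1 fell by 1.5, ISG15 by 1.4 and the editing enzyme ADAR by 1.34, while IRF9, a component of the interferon-activated factor, rose by 3.11 ± 0.69.

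**Figure D4:**
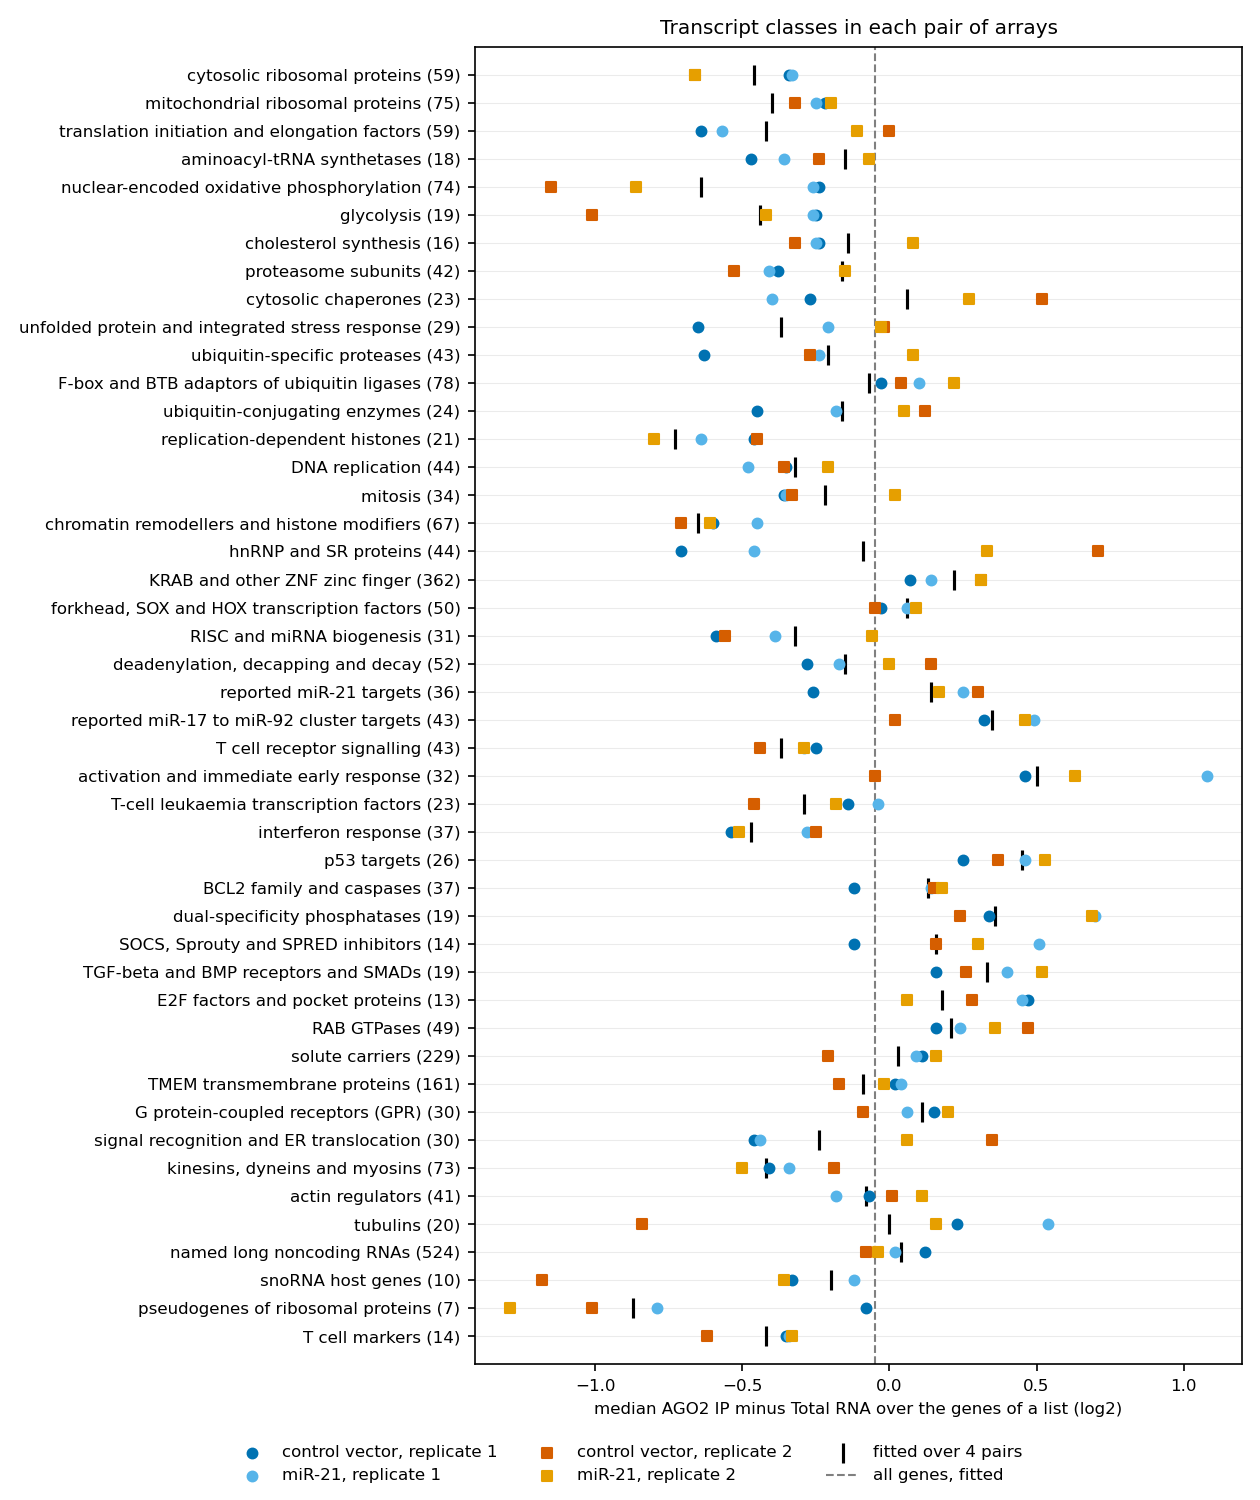
Median AGO2 IP minus Total RNA (log2) over the genes of each list with at least 7 genes tested, in each of the 4 pairs (points) and as fitted (bars), with the fitted median of all genes at -0.05 (dashed); the number of genes is in brackets. Histone, chromatin and respiratory chain lists lie below the dashed line in every pair, p53, ZNF and RAB lists above it, and hnRNP and SR proteins lie below in replicate 1 and above in replicate 2.

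Membrane traffic and cytoskeleton genes were divided by family. Of 49 RAB GTPase genes, switches of vesicle traffic, 6 were higher (12.2%) and 1 lower. Their median was 0.21, and 0.19 for IgG IP minus Total RNA. RAB5C rose by 2.76 ± 0.55, RAB1A by 1.99 ± 0.35 and RAB18 by 1.85 ± 0.37, and RAB8A fell by 0.95 ± 0.19. Of 41 actin regulators 5 were higher, among them CFL2, WASL (3.13) and TWF1 (2.56), and 4 lower, among them TMSB10 (-1.57) and DIAPH1 (-1.53). Kinesins, dyneins and myosins had 17 of 73 members lower (23.3%) and 2 higher (median -0.42). The myosin heavy chains MYH10 (-2.36 ± 0.35) and MYH9 (-1.95 ± 0.27) fell most, and the dynein subunits DYNLT1 (2.28) and DYNC1LI2 (1.4) rose; DYNLT1 stood at -0.34 in the control vector pair of replicate 2 against 2.40 to 3.67 in the others. Among 20 tubulin genes, a list that took in the gamma-tubulin complex member TUBGCP2 by its symbol, only TUBGCP2 was called (-1.28), and its other probe sets gave 0.08 and 0.10. Of 30 genes of signal recognition and ER translocation 4 were lower, with SSR4 at -2.17, OST4 at -1.81 and SSR2 at -1.47. Solute carriers (12 of 229 higher, 16 lower), TMEM genes (12 of 161 higher, 15 lower) and GPR receptors (2 of 30 higher, GPR137B by 3.76 and GPR183 by 1.19) had medians of 0.03, -0.09 and 0.11. SLC49A4 rose by 2.30 and TMEM60 by 2.31, and SLC5A3 fell by 1.61 and TMEM219 by 1.78; SLC35G1 rose by 1.96 while its other probe sets gave -0.61 and -0.51.

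Of 735 genes annotated as lncRNA 11 were higher (1.5%) and 58 lower (7.89%), beside 4.99% and 11.5% of 11840 protein-coding genes. Their median level over the 12 arrays was 4.94, against 7.33 for protein-coding genes, and the part of the level in this difference was not tested. Among the named long noncoding RNAs 10 of 524 were higher, led by GARS1-DT (3.17), TRG-AS1 (2.40) and DPH5-DT (2.13), and 41 lower. GARS1-DT had 4 other probe sets, at -0.46 to -0.33. MALAT1, a nuclear RNA picked out here after its values were seen, differed by -3.94 and -2.01 in replicate 1 and by -0.14 and -0.50 in replicate 2 and did not pass the test (-1.65 ± 0.64, adjusted p = 0.113). TUG1, likewise picked out, fell by nearly the same amount in each pair, from 0.84 to 1.08 (fitted -0.97 ± 0.22, adjusted p = 0.0230). Of 10 snoRNA host genes SNHG19 (-2.28) and TAF1D (-2.26) were lower, and of 7 ribosomal protein pseudogenes RPS16P5, RPS10P7 (-1.43) and RPL32P3 (-0.87) were lower.

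The span of a gene on the genome, taken from RefSeq (GRCh38.p14) and introns included, went with the calls on the lower side. The genes were divided into 5 equal bins by span. In the bin of the largest span, 84.2 kb and over, 17.6% were called lower, against 9.21% to 10.5% in the other 4 bins, while 3.83% to 5.58% were called higher across the 5. The pairs differed in this. The median difference fell from 0.07 in the shortest bin to -0.43 in the longest in the control vector pair of replicate 1 and from -0.01 to -0.22 in the miR-21 pair of that replicate. In replicate 2 it stood at -0.26 and -0.03 in the shortest bin and at -0.03 and -0.05 in the longest (control vector, then miR-21). Mean level was divided likewise: in the bin of the highest level the medians were -0.40 and -0.30 in replicate 1 and 0.29 and 0.16 in replicate 2. In the lowest bin of level 0.975% were called higher and 2.89% lower, and in the highest 7.64% and 11.2%.

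**Figure D5:**
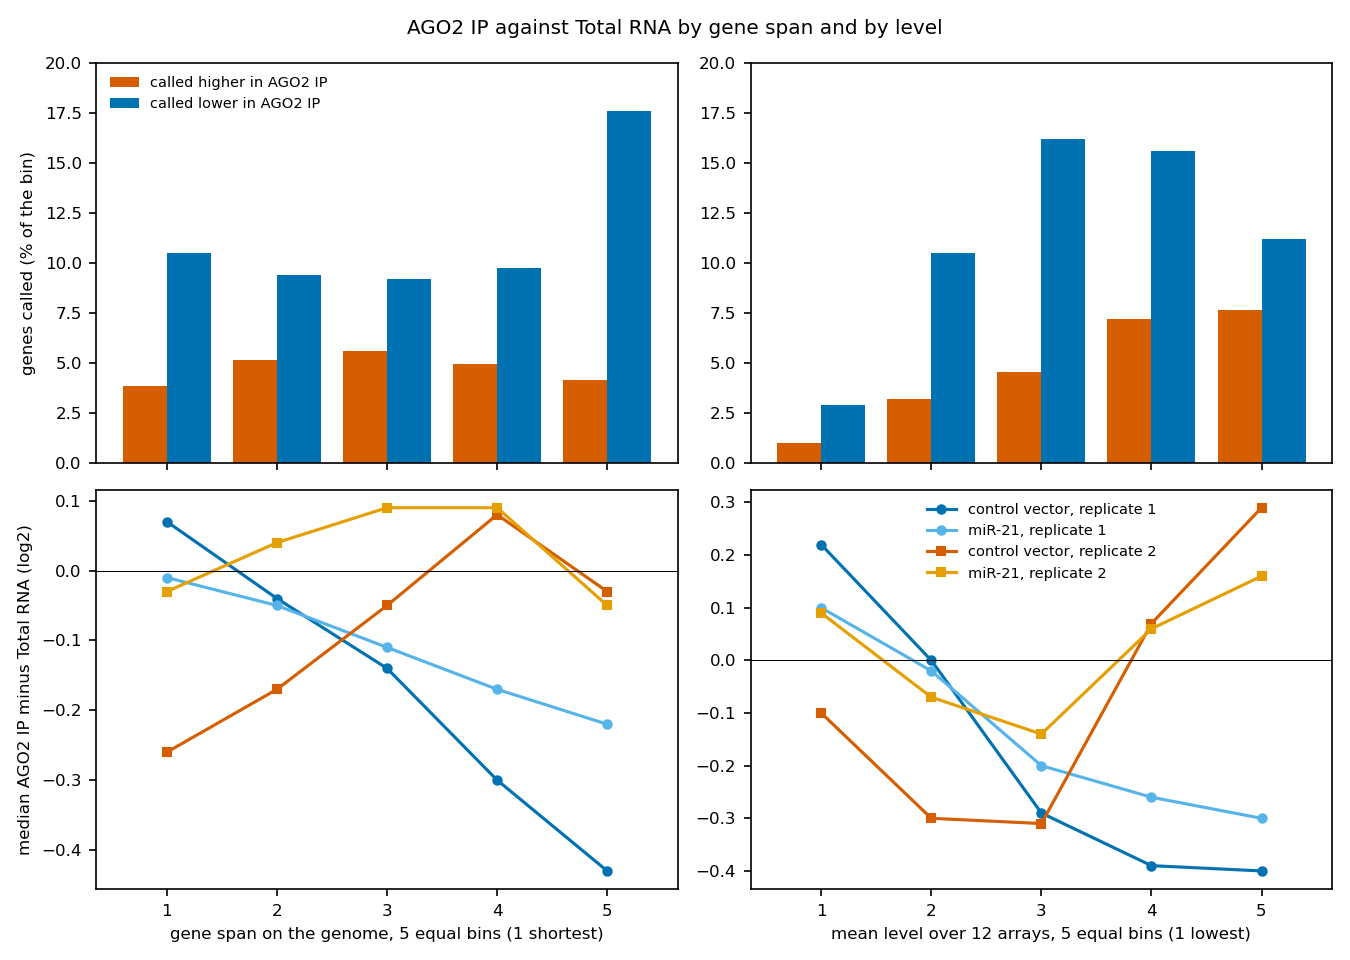
Share of genes called higher or lower in AGO2 IP (top, % of the bin) and median AGO2 IP minus Total RNA in each pair (bottom, log2), by 5 equal bins of gene span (left) and of mean level over the 12 arrays (right). The bin with the largest span has 17.6% of its genes called lower, and in the bin with the highest level the medians are -0.40 and -0.30 in replicate 1 and 0.29 and 0.16 in replicate 2.

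Each replicate was also tested by itself within the fit of all arrays. In this fit each fraction of a replicate held an array of each construct, with construct as a covariate. Its spread is therefore that left between constructs, not that between replicates of a construct. In replicate 1, 1338 genes were higher (10.4%) and 2643 lower (20.6%), and in replicate 2, 2105 were higher (16.4%) and 2659 lower (20.7%). The replicates shared 614 higher genes, 45.9% of those of replicate 1 and 29.2% of those of replicate 2. They shared 1095 lower genes, 41.4% and 41.2%. In opposite directions, 270 genes were lower in replicate 1 and higher in replicate 2, and 9 were higher in replicate 1 and lower in replicate 2. Dual-specificity phosphatases had 7 and 5 of 19 members higher (replicate 1, then 2), and kinesins, dyneins and myosins had 28 and 25 of 73 lower. RAB GTPases had 12 and 21 of 49 higher, with 11 members called towards replicate 2 and 4 towards replicate 1 in the difference between replicates. Translation factors had 31 of 59 lower in replicate 1 and 20 in replicate 2, while 3 and 10 were higher. The count for replicate 1 (3981) became 910 without its Total RNA array of miR-21 cells, 1896 without that of vector cells and 1804 without its AGO2 IP array of vector cells. That for replicate 2 (4764) became 2355 without its Total RNA array of vector cells and 3139 without its AGO2 IP array of vector cells.

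The difference between the replicates, tested directly, was called for 864 genes towards replicate 1 (6.74%) and 1774 towards replicate 2 (13.8%), at a Benjamini-Hochberg adjusted p under 0.05 in limma. Genes of pre-mRNA processing took opposite directions in the replicates. Of 44 hnRNP, SR and snRNP protein genes 21 were called towards replicate 2 and 2 towards replicate 1. The list median was -0.71 and -0.46 in replicate 1 and 0.71 and 0.33 in replicate 2 (control vector, then miR-21). The bin of highest mean level took the same directions, with medians of -0.40 and -0.30, then 0.29 and 0.16. The list was not set against genes of like level. In replicate 1, 21 were lower and 1 higher, and in replicate 2, 7 were lower and 20 higher. Averaged over both replicates only SNRPF was higher (1.06 ± 0.21), and 5 were lower, SRRM2 (-1.65), SNRPD2 (-1.51) and SRRM1 (-1.22) foremost. Translation factors (19 of 59), chaperones (9 of 23) and signal recognition and ER translocation genes (13 of 30) also had many members towards replicate 2. In the same order 7, 1 and 7 members were called towards replicate 1. Towards replicate 1 were 25 of 74 respiratory chain genes, 11 of 59 cytosolic ribosomal protein genes and 18 of 75 mitochondrial ones. In the same order 3, 0 and 10 members were called towards replicate 2. Among the mitochondrial ribosomal protein genes MRPL20 was higher than Total RNA in both replicates. The count of 2638 depended on single arrays. Leaving out an AGO2 IP array of vector cells gave 370 (replicate 2) or 872 (replicate 1), and leaving out that of miR-21 cells in replicate 1 gave 3966. With a Total RNA array left out of replicate 1 it was 3 (miR-21) or 753 (vector), and out of replicate 2 it was 1269 (miR-21) or 4 (vector).

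Single genes show the size of these differences. PPP3R1, the regulatory subunit of calcineurin, read 8.79 and 8.56 in Total RNA of replicate 1 and 9.17 and 9.06 in AGO2 IP, but 7.27 and 7.14 against 11.25 and 11.37 in replicate 2. AGO2 IP exceeded Total RNA in all 4 pairs, by 0.38 and 0.50 and then by 3.98 and 4.23 (replicate 1 minus replicate 2, -3.66 ± 0.25, adjusted p = 0.00104). TAF15, an RNA-binding protein gene, differed by 0.92 and 1.67, then by 4.69 and 4.74, while its other probe sets gave -3.18 and -1.67 over both replicates. TRAPPC6B, of a vesicle tethering complex, and TEX9 changed sign: TRAPPC6B differed by -2.28 and -1.32 in replicate 1 and by 1.95 and 1.29 in replicate 2, and TEX9 by -1.43 and -1.14, then by 2.65 and 1.62. SLC12A2-DT went from -0.73 and -0.56 to 3.27 and 2.93, with its other probe sets at -0.84 and -0.77. MANEA, a mannosidase of the Golgi, went from -4.03 and -1.50 to 1.68 and 0.25; its difference was no longer called without the array that stood apart (-3.13, adjusted p = 0.123).

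Towards replicate 1, TMEFF2, a transmembrane protein with an EGF-like domain, read 5.34 and 5.11 in Total RNA and 10.05 and 7.54 in AGO2 IP of replicate 1, against 6.55 and 6.12 and then 6.19 and 5.64 in replicate 2. It was thus above Total RNA in replicate 1 only (3.98 ± 0.70, adjusted p = 0.00988). RASEF, a RAB-like GTPase, differed by 2.73 and 0.48, then by -1.88 and -1.95. PABPC1L, a poly(A)-binding protein gene, was lower in all 4 pairs, at -0.70 and -1.38 and then at -3.84 and -4.04. SOCS1 was higher in all 4, by 4.96 and 5.80 and then by 1.05 and 2.55. EFNA3, an ephrin (3.36 and 3.69, then 0.07 and 1.28), and DPAGT1, which starts N-glycan synthesis (2.47 and 2.54, then -1.48 and 0.76), completed the 6. Without the array that stood apart the difference between replicates was no longer called for SOCS1 (2.95, adjusted p = 0.0635), EFNA3 (2.41, adjusted p = 0.111) and DPAGT1 (1.93, adjusted p = 0.163).

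Other probe sets of the same genes gave a further measurement on the same arrays. Of 313 genes called higher that had a second probe set, 87.5% had the same sign there and 144 were called in that direction as well; of 821 called lower the figures were 87.7% and 343. Over all 6085 genes with a second probe set the share was 72.7%. In 6 genes of each direction the second probe set was called the opposite way.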

How the data were processed

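RNA was hybridised to human Affymetrix arrays. Per the labels, the authors deposited log2 values made with RMA. The sources used here do not give its settings or say whether the 12 arrays were normalized together. Of 54675 probe sets 62 are controls and were left out; of the rest 41091 list 1 gene symbol, 1801 several and 11721 none. For each of 19775 genes the probe set of highest mean over the 12 arrays stood for the gene, and the 12824 with a mean of at least 4.02, the median of the probe sets that are not controls, were tested.

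limma 3.58.1 in R 4.3.3 (data.table version 1.17.8) fitted 6 group means and a replicate block to all 12 arrays, which left 5 residual degrees of freedom. The difference between replicates came from a fit of fraction by replicate means with construct as a covariate. Calls for each replicate came from the same fit, whose spread is that left between constructs. The threshold for a call was a Benjamini-Hochberg adjusted p of 0.05, and the fit was tested on simulated data. Plots used matplotlib 3.10.9 and pandas 2.3.3 under Python 3.11.15. Whether a replicate number stands for a shared day is not stated in the labels; for arrays of the same number, deviations from the group mean correlated at 0.468 to 0.873 over the 15 pairs of groups, which was taken as pairing. Named genes were the 12 rises and 12 falls with the largest least difference over the 4 pairs, 6 each way for the difference between replicates, up to 3 called members each way per list, and AGO1 to AGO4, TNRC6A to TNRC6C and DICER1. Gene lists were compiled from symbols and general knowledge; the comparison, lists and rules were chosen with earlier results of these data known. Classes by protein length, zinc finger number and hydrophobic stretches, and protein sequences, are not analysed here. Alternatives were the replicate block, scaling, filter, probe set rule, limma-trend and each array left out. For arrays, their number limits the precision.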

Additional observations from a re-analysis of the deposited data

Results flagged for a closer look

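Probe sets that list no gene were left out of the comparisons by gene, and some carried a signal. Of 3066 such probe sets that passed the filter on low values, 449 were called lower and 59 higher in AGO2 IP against Total RNA in a fit over all probe sets that are not controls, against 2415 lower and 962 higher among 23123 probe sets with 1 gene symbol. Which transcripts they measure is not analysed here.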

How the results depend on the processing

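With 2 arrays a group, counts of calls moved most with the array left out. Leaving out each array in turn gave 2 to 3051 genes called in AGO2 IP against Total RNA (2051 with all arrays), 0 to 1073 higher, 2 to 1978 lower, and 3 to 3966 in the difference between replicates. For replicate 1 alone the range was 910 to 4696 and for replicate 2 alone 2355 to 5264; separate fits of the 6 arrays of each gave 4655 and 4509. Without the replicate block 0 genes were called, higher or lower; the numbers were taken as pairing the arrays. Cyclic loess gave 788 lower genes. Chosen after the data were seen, centring on the genes tested gave 1017 higher and 701 lower, and leaving out, both from replicate 2, the AGO2 IP array of vector cells and the IgG IP array of miR-21 cells gave 1100 higher. Under the other scalings, filters, probe set rules, limma-trend and the 8 arrays alone, every count stayed within 1.5 times the main count. The difference between constructs was called for 0 genes under all alternatives. Of the 201 named genes of the main comparison, 194 were no longer called without the replicate block. Most also lost the call when either AGO2 IP array of miR-21 cells or either Total RNA array of replicate 2 was left out.

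Named genes with reversed signs, none past the threshold under that setting, were AGO4 (0.07), TNRC6C (-0.11) and IKZF2 (0.03) with the mean of all probe sets; AGO1 (-0.36), SDHC (-0.20) and UQCR11 (0.14) without probe sets ending in _x_at or _s_at; and, with an array left out, AGO1 (-0.09 to 0.17 over the 12) and TNRC6C (-0.23 to 0.25).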
